A study of Mus musculus with 19 samples.

Results

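The mouse mitochondrial genome encodes 7 subunits of complex I, and their mRNAs (mt-Nd1, mt-Nd2, mt-Nd3, mt-Nd4, mt-Nd4l, mt-Nd5 and mt-Nd6) were followed through 19 bulk liver libraries. They are 7 of 55836 genes with counts, found by their symbols, and all 7 passed the filter on low counts that left 13597 genes for testing. The 7 were selected on their values in these same libraries, in the 4 groups and on either side of a division by library number, so their differences are given as a description, no p of theirs is printed, and where a count of the 7 called by a test is given, nothing is read from it. All mice were male wild-type C57BL/6, bought at 8 weeks of age, and 1 library was made from each liver. They ate a control diet (CD) or a diet rich in fat, fructose and cholesterol that serves as a model of steatohepatitis (MASH diet, MD). For 8 weeks every mouse received a daily oral gavage, either of the vehicle (Veh) or of polyethylene particles (PE, 2 mg per mouse and day) in that vehicle. CD + Veh held 4 mice and each of CD + PE, MD + Veh and MD + PE held 5, and the labels place every library in 1 batch, named B1.

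Complex I, the NADH:ubiquinone oxidoreductase, passes electrons from NADH to ubiquinone and pumps protons across the inner mitochondrial membrane, and the liver uses it to dispose of the NADH made by fatty acid oxidation and the citric acid cycle. The 7 mitochondrial subunits form the core of its membrane arm, while the remaining core subunits, all accessory subunits and all assembly factors are nuclear genes whose proteins are imported. Mitochondrial DNA is transcribed from both strands as long polycistronic RNAs that are cut at the tRNAs between the genes, so the abundance of each mRNA depends on its processing and stability as well as on transcription. The labels and methods describe selection of poly(A) RNA. Mitochondrial tails are short, and in human cells the ND6 mRNA is known to carry no stable tail.

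In the GRCm39 assembly with GENCODE vM39 names, 6 of the 7 genes lie on the same strand and mt-Nd6 lies alone on the other, at chrM:13552-14070 (519 bases, minus strand). mt-Nd1 occupies chrM:2751-3707, mt-Nd2 chrM:3914-4951, mt-Nd3 chrM:9459-9806, mt-Nd4l chrM:9877-10173, mt-Nd4 chrM:10167-11544 and mt-Nd5 chrM:11742-13565. Each is a single coding exon without introns. The strand shows in the base composition: G and T made up 71.9% of the mt-Nd6 mRNA and between 35.4% and 43.7% of the other 6. The first 60 bases of the 4 mRNAs whose levels are described most closely below, 5′ to 3′ with the start codon in capitals, show this difference.
mt-Nd6: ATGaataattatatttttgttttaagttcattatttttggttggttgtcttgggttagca
mt-Nd3: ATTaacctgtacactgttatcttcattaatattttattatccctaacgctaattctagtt
mt-Nd5: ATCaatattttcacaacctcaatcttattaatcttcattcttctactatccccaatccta
mt-Nd1: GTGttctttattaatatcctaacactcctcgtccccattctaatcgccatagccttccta

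Pairs of these genes share bases, which bears on how reads can be assigned to them. mt-Nd4l and mt-Nd4 overlap by 7 bases on 1 strand and are carried by 1 bicistronic mRNA. The last 14 bases of mt-Nd5 and of mt-Nd6 are the same stretch read from opposite strands. The libraries were stranded, and Salmon, which assigned the reads, was left to detect the library type by itself. The type it found was not given in the sources used here. The junctions are printed 5′ to 3′ with the shared bases in capitals, chrM:10137-10203 for the first and chrM:13522-13595 for the other, on the plus strand (mt-Nd5) and the minus strand (mt-Nd6).
mt-Nd4l and mt-Nd4: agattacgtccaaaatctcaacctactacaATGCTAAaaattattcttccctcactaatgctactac
mt-Nd5 end: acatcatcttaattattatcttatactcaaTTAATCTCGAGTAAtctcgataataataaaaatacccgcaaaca
mt-Nd6 end: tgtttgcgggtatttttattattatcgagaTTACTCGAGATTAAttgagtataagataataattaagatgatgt

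A stretch of the nuclear genome repeats mt-Nd3, mt-Nd4l and the first part of mt-Nd4. At chr1:24650616-24655269 the assembly is 99.936% identical over 4654 aligned bases to chrM:6390-11042. It holds Gm28438 (a copy of mt-Nd3), Gm10222 (a copy of mt-Nd4l with no difference) and Gm28439 (a copy of the first 876 bases of mt-Nd4 with no difference). Gm28438 differs from mt-Nd3 at 1 of 345 bases, T3C counted from the 5′ end of mt-Nd3, which falls in the start codon. The site is shown with the differing base in capitals, at chrM:9459-9491 and on the minus strand of chr1:24652168-24652200.
mt-Nd3: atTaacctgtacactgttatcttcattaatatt
Gm28438: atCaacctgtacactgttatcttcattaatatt

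Each library held between 10398820 and 15456729 estimated counts, with every PE library below every vehicle library (at most 12757617 against at least 13406037), and 1 CPM (counts scaled to library size by the TMM method) stood for 9.96 to 16.1 counts. The 7 mRNAs took between 3.04% and 5.07% of all counts of a library. The hepatocyte markers Alb, Ttr, Apoa1, Hnf4a and Cyp2e1 summed to between 45760 and 88385 CPM, so transcripts that define hepatocytes were abundant in every library. Markers of skeletal muscle, a tissue rich in mitochondria, stood apart in single libraries: the 6 muscle genes summed to between 0.311 and 31.4 CPM in CD + Veh, 0.692 and 352 in CD + PE, 0.449 and 1.79 in MD + PE, and 1.85 and 2719.8 in MD + Veh, the last value in replicate 1. The column names carry library numbers, 39 to 42 for CD + Veh, 43 to 47 for MD + Veh, 48 to 52 for CD + PE and 53 to 57 for MD + PE. The division between numbers 45 and 46 therefore runs through MD + Veh, leaving its replicates 1 to 3 on the side of CD + Veh and its replicates 4 and 5 on the side of all PE libraries. What the numbers stand for was not given in the sources used here. In bulk tissue, fewer cells of a type and less RNA per cell cannot be told apart.

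Per kilobase of gene length, the 7 mRNAs covered a wide range of levels. In CD + Veh mt-Nd2 stood at 9634 ± 1789 CPM per kb (SD, n = 4), mt-Nd1 at 8667 ± 868 and mt-Nd4 at 7227 ± 1099, and the mean ± SD intervals of neighbours in this order overlapped. mt-Nd5 followed at 3469 ± 414, mt-Nd4l at 1709 ± 321, mt-Nd3 at 917 ± 112 and mt-Nd6 at 401 ± 27.7, and from mt-Nd4 down no interval overlapped the next. The order of the first 5 was the same in the means of all 4 groups. The last 2 traded places: in CD + PE mt-Nd6 stood at 769.6 ± 156 and mt-Nd3 at 575 ± 69.0 CPM per kb (SD, n = 5), and in MD + PE mt-Nd6 stood at 1112 ± 264 and mt-Nd3 at 439.7 ± 29.6, the intervals overlapping in CD + PE and not in MD + PE.

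**Figure D1:**
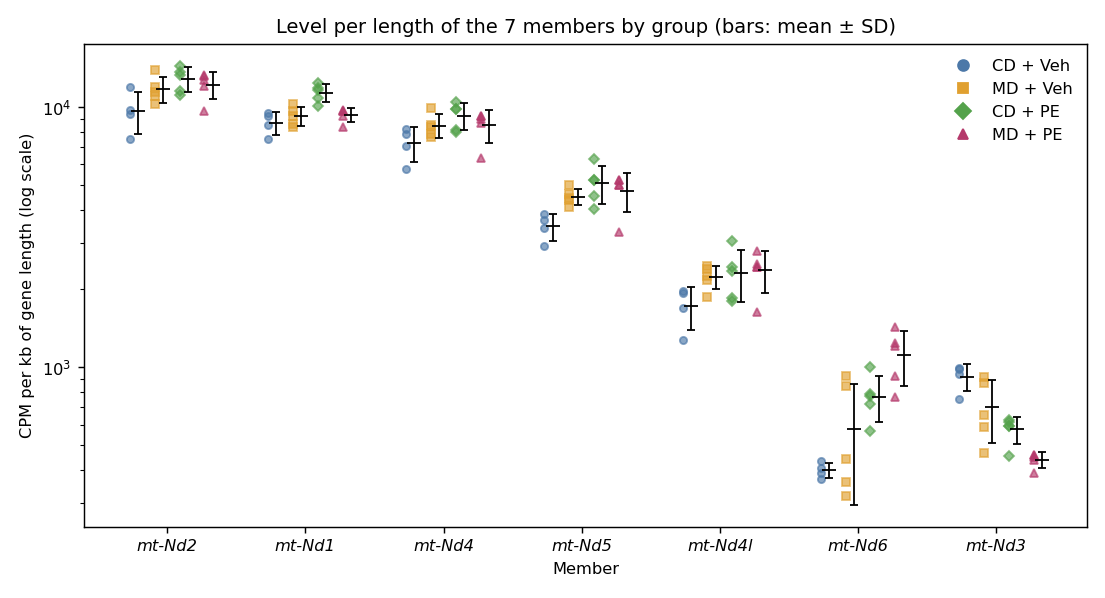
Level per length of the 7 mRNAs in the 4 groups, on a log axis, with 1 point per library and the mean ± SD as black bars. mt-Nd2, mt-Nd1 and mt-Nd4 lie highest, and mt-Nd6 and mt-Nd3 change their order between CD + Veh and the PE groups.

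mt-Nd6, a membrane subunit that lies beside mt-Nd1 and mt-Nd3 where the arms of the complex meet, varied most among the 7, with a coefficient of variation of 45.4% over the 19 libraries. The 4 CD + Veh libraries held 226, 202, 212 and 192 CPM. The CD + PE libraries held 373, 294, 519.8, 408 and 402 CPM, all above CD + Veh. The MD + PE libraries held 398, 479, 639, 626 and 742 CPM. In MD + Veh the values fell into separate ranges: replicates 1 to 3 held 166, 188 and 229.6 CPM, like CD + Veh, and replicates 4 and 5 held 437 and 479.9, within the range of the PE groups. The log2 fold change was 0.94 (SE 0.27) for CD + PE against CD + Veh and 0.94 (SE 0.25) for MD + PE against MD + Veh, or 1.92-fold in both diets.

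Sorted by library number, the 7 libraries numbered 39 to 45 held 166 to 229.6 CPM of mt-Nd6 and the 12 numbered 46 to 57 held 294 to 742, without overlap, and the means were 202 ± 22.4 (SD, n = 7) and 483 ± 129 (SD, n = 12). mt-Nd3 was the other of the 7 whose ranges did not meet across the division. Of all genes tested, 0.765% did not overlap across it, 47 higher and 57 lower in the later libraries, and the selection of the 7 used this division, so nothing is read from the count of 2. Within MD + Veh, the group on both sides of it, replicates 4 and 5 exceeded replicates 1 to 3 by 1.24 on the log2 scale (SE 0.22) in mt-Nd6, a fit in which 1 of the 7 and 0.103% of all genes were called. Within MD + Veh the muscle markers differed across the division too, at 114 to 2719.8 CPM in replicates 1 to 3 against 13.2 and 1.85 in replicates 4 and 5. edgeR called 0 of these 6 genes there, and all 6 had an unadjusted p below 0.05, beside 1642 of all genes tested. Over all libraries their sums overlapped, at 0.311 to 2719.8 CPM in libraries 39 to 45 and 0.449 to 352 CPM in libraries 46 to 57. The part of muscle RNA in the mt-Nd6 values was not tested.

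With the division as a term in the fit, the PE difference of mt-Nd6 on the control diet was -0.30 (SE 0.28) in place of 0.94, and on the MASH diet 0.33 (SE 0.21). On the MASH diet this is the difference of the 5 PE libraries from MD + Veh replicates 4 and 5. On the control diet all vehicle libraries lie before the division and all PE libraries after it, so PE and library number cannot be told apart there, and the fitted value takes the size of the division from MD + Veh alone. Between the diets, mt-Nd6 was 0.53 (SE 0.25) higher on the log2 scale in MD + PE than in CD + PE, whose libraries all lie after the division. The MD + Veh mean exceeded CD + Veh by 0.53 (SE 0.27), and with the division in the fit this became -0.098 (SE 0.19). Leaving out MD + Veh replicate 1, the library with most muscle RNA, gave 0.80 for PE on the MASH diet and 0.70 for the diet under vehicle, while leaving out MD + Veh replicate 5 gave 1.18 and 0.30.

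**Figure D2:**
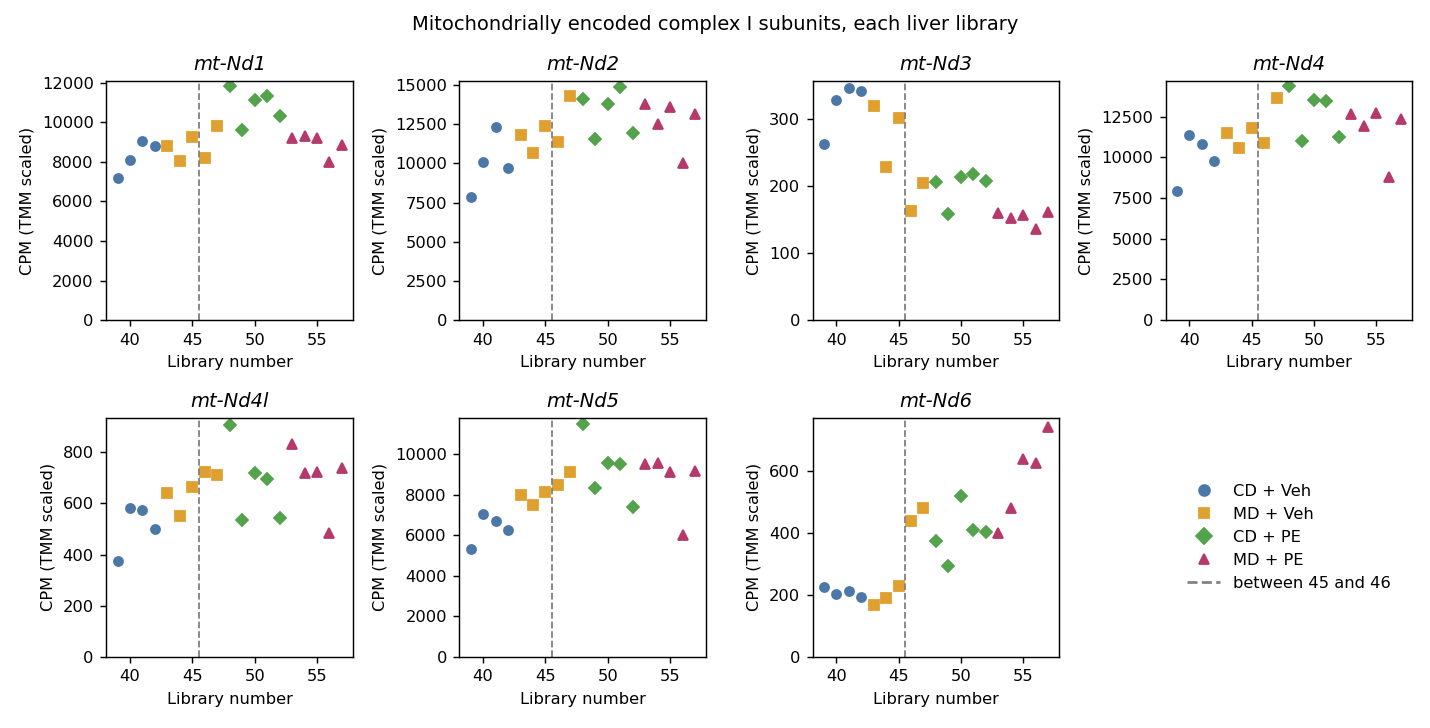
TMM-scaled CPM of each of the 7 mRNAs against library number, 1 point per library, coloured by group, with a dashed line between numbers 45 and 46. mt-Nd6 lies at 166 to 229.6 CPM before the line and 294 to 742 after it, mt-Nd3 at 228 to 346 before and 136 to 218 after, and the other 5 overlap across the line.

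mt-Nd3, whose protein carries a flexible loop that moves when complex I switches between its active and resting states, went the opposite way. The CD + Veh libraries held 262, 328, 346 and 341 CPM and the CD + PE libraries 206, 158, 213, 218 and 206. MD + Veh held 319, 228 and 301 CPM in replicates 1 to 3 and 163 and 205 in replicates 4 and 5. MD + PE held 159.9, 152, 157, 136 and 160.3 CPM, each below every MD + Veh library. In both diets the PE libraries lay below their vehicle group without overlap; on the MASH diet the closest libraries held 163 and 160.3 CPM. The log2 fold change was -0.67 (SE 0.15) on the control diet and -0.67 (SE 0.14) on the MASH diet. With the division as a term these became -0.053 (SE 0.19) and -0.27 (SE 0.14), and within MD + Veh replicates 4 and 5 lay below replicates 1 to 3 by 0.62 (SE 0.16) on the log2 scale. The MASH diet went with lower mt-Nd3 under vehicle, by -0.39 (SE 0.15) on the log2 scale (-0.18, SE 0.13, with the division), and under PE, by -0.39 (SE 0.14).

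The nuclear copy could take reads from mt-Nd3, and its counts were uneven. Gm28438 held between 0 and 884 counts and was above 0 in 9 libraries, and at most it made up 19.4% of the sum of copy and mt-Nd3. With the copy added, mt-Nd3 held 282 to 346 CPM in libraries 39 to 45 and 137 to 218 CPM in libraries 46 to 57, still without overlap. The sum gave a PE difference of -0.73 on the control diet and -0.67 on the MASH diet on the log2 scale. Gm28439 held up to 5658 counts, at most 3.88% of its sum with mt-Nd4, and Gm10222 held 0 counts in every library, so mt-Nd4l and that copy could not be told apart by counts. Gm29216, on the list of nuclear copies of mitochondrial genes, fell by 0.71 (SE 0.18, adjusted p = 0.0303 by edgeR's quasi-likelihood test with Benjamini-Hochberg adjustment) for PE on the control diet, the one call of that test among the 5 copies tested, and with the division as a term it was no longer called, at 0.045 (SE 0.22, adjusted p = 0.96). DESeq2 called 4 copies there (Gm28438, Gm28439, Gm28661 and Gm29216) and 2 on the MASH diet (Gm28661 and Gm29216). More distant copies of mt-Nd2, mt-Nd5 and mt-Nd6 held at most 17, 3 and 1 counts.

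Ratios within a library do not depend on the scaling between libraries. Per length, mt-Nd6 stood at 10.1 to 14.96 per 100 mt-Nd5 in CD + Veh, at 7.32 to 9.91 in MD + Veh replicates 1 to 3, at 18.1 and 18.5 in replicates 4 and 5, at 11.4 to 19.1 in CD + PE and at 14.7 to 36.6 in MD + PE. The CD + Veh and CD + PE ratios overlapped through CD + Veh replicate 1 at 14.96, while the other 3 CD + Veh libraries, at 10.1 to 11.2, lay below every CD + PE library. mt-Nd3 per 100 mt-Nd4 separated more clearly, at 8.53 to 13.8 in libraries 39 to 45 and 4.90 to 7.28 in libraries 46 to 57. By contrast mt-Nd4l, which shares its mRNA with mt-Nd4, stayed between 22.0 and 30.9 per 100 mt-Nd4 in all 19 libraries.

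**Figure D3:**
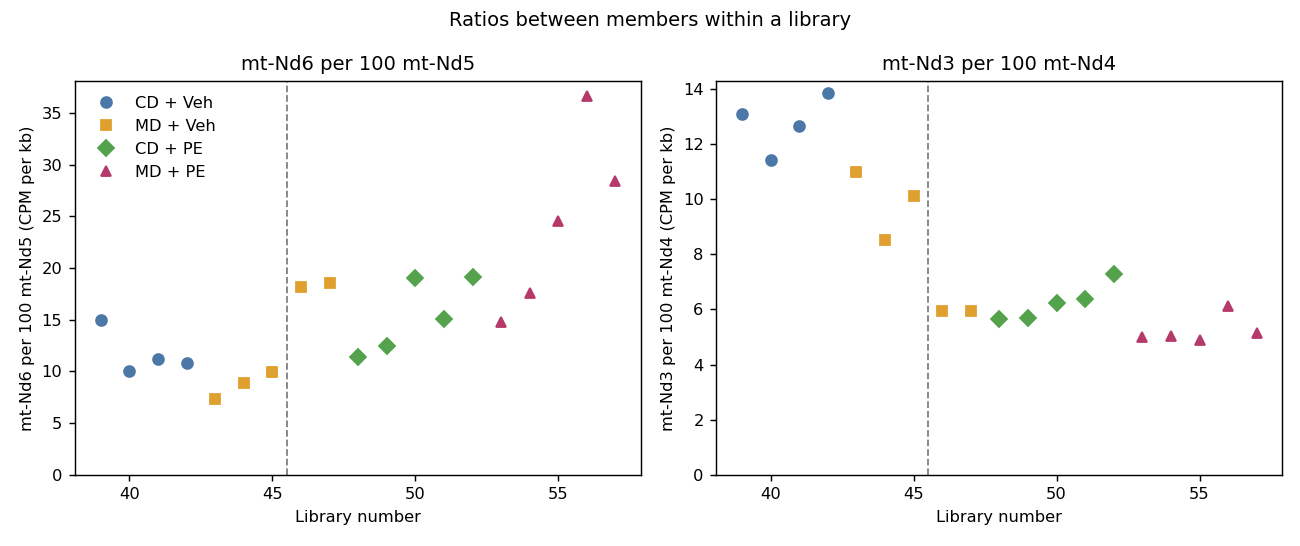
Ratios of CPM per kb within each library, mt-Nd6 per 100 mt-Nd5 on the left and mt-Nd3 per 100 mt-Nd4 on the right, against library number, coloured by group, with a dashed line between numbers 45 and 46. The mt-Nd3 ratio is at 8.53 to 13.8 before the line and 4.90 to 7.28 after it, and the mt-Nd6 ratio rises to 36.6 in MD + PE.

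The 5 remaining mRNAs moved together. Over the 19 libraries, Pearson correlations of log2 CPM among mt-Nd1, mt-Nd2, mt-Nd4, mt-Nd4l and mt-Nd5 ran from 0.62 to 0.94 in 10 pairs, described without a test since the libraries share groups and scaling. mt-Nd3 correlated with mt-Nd6 at -0.83 and with these 5 at between -0.41 and -0.11. mt-Nd2, mt-Nd4 and mt-Nd5 encode the antiporter-like subunits of the proton pump, and mt-Nd1 the subunit that joins the pump to the ubiquinone site.

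On the control diet, the PE group held more of these 5 mRNAs. mt-Nd1 was measured at 7199, 8112, 9036 and 8829 CPM in CD + Veh and at 11861, 9613, 11118, 11330.0 and 10311 CPM in CD + PE, without overlap. mt-Nd5 was measured at 5311, 7067, 6680.4 and 6253 CPM in CD + Veh and at 11486, 8309, 9575, 9536 and 7398 CPM in CD + PE, also without overlap. The log2 fold change was 0.39 (SE 0.10) for mt-Nd1 and 0.55 (SE 0.14) for mt-Nd5. It was 0.41 (SE 0.14) for mt-Nd2, 0.35 (SE 0.14) for mt-Nd4 and 0.42 (SE 0.17) for mt-Nd4l, where the ranges of the groups overlapped. With the division as a term, the 5 values ran from 0.21 to 0.39 with SEs of 0.17 to 0.28. CD + Veh replicate 1 was the lowest of its group in each of the 5. In the whole fit, 3 of the 7 mRNAs were called (adjusted p below 0.05 and a log2 change of at least 0.38 either way), mt-Nd1 and mt-Nd5 as higher and mt-Nd3 as lower, beside 2.92% of all genes tested, and since the 7 were selected on this comparison nothing is read from that count. DESeq2 called 5, adding mt-Nd2 and mt-Nd6, beside 5.28% of the genes to which it gave an adjusted p. The ranges of 4 of the 7 did not overlap, beside 7.83% of all genes tested.

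On the MASH diet the same 5 mRNAs showed differences near 0 between PE and vehicle. The log2 fold changes were 0.013 (SE 0.094) for mt-Nd1, 0.058 (SE 0.13) for mt-Nd2, 0.0027 (SE 0.13) for mt-Nd4, 0.085 (SE 0.16) for mt-Nd4l and 0.075 (SE 0.13) for mt-Nd5. The SEs are wide enough to leave room for differences of either sign.
mt-Nd1 was measured at 8809, 8027, 9253, 8214 and 9842 CPM in MD + Veh and at 9193, 9291, 9233, 7988 and 8840.2 CPM in MD + PE. The ranges overlapped, as did those of mt-Nd2, mt-Nd4, mt-Nd4l and mt-Nd5 between these groups, and mt-Nd6 overlapped only through MD + Veh replicates 4 and 5. MD + PE replicate 4 was the lowest of its group in all 6 mRNAs other than mt-Nd6, with mt-Nd5 at 6005 CPM against 9139.9 to 9553 in the other 4 libraries. Of the 7, mt-Nd3 alone was called, beside 1.08% of all genes tested, again in a comparison used for the selection. DESeq2 called mt-Nd3 and mt-Nd6, beside 2.15% of its genes. mt-Nd3 was also the one of the 7 without overlap, beside 3.57% of all genes tested. With the division as a term the 5 values ran from -0.069 to -0.017 on the log2 scale, with SEs of 0.12 to 0.21.

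**Figure D4:**
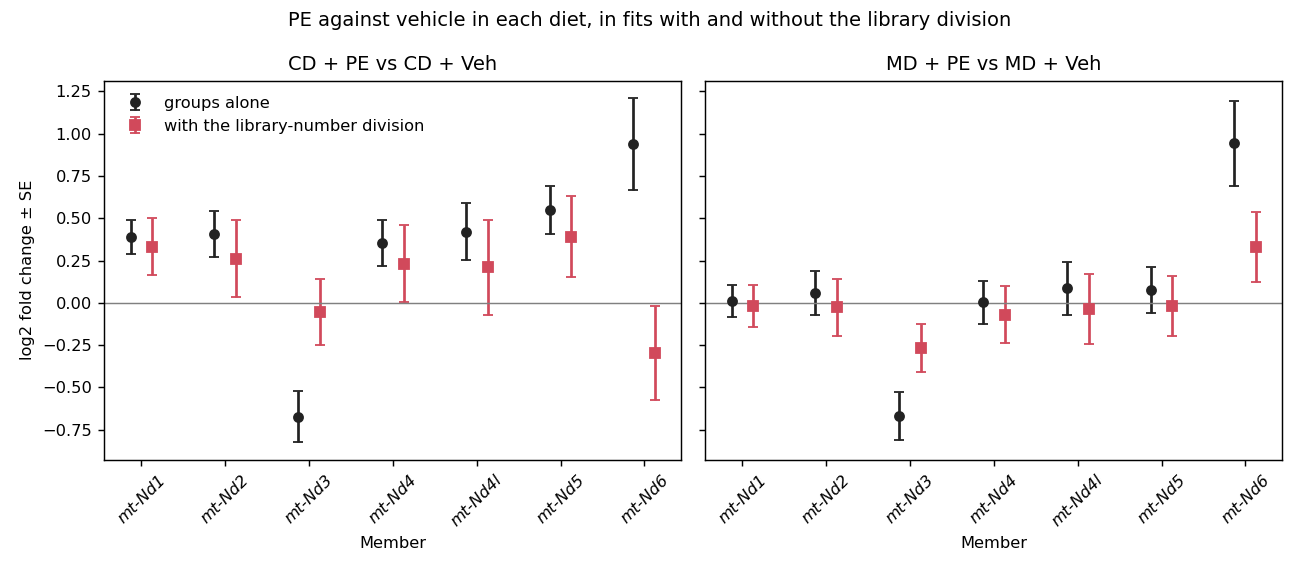
Log2 fold change of PE against vehicle for each of the 7 mRNAs on the control diet and on the MASH diet, with the SE as bars, black for the fit of the groups alone and red with the library-number division as a term. In black, mt-Nd6 is at 0.94 and mt-Nd3 at -0.67 in both panels, and in red both lie closer to 0 or beyond it, while the other 5 lie above 0 on the control diet and near 0 on the MASH diet.

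The difference between the diets in the size of the PE effect was estimated as an interaction. For mt-Nd1 the PE difference was 0.37 (SE 0.14) smaller on the MASH diet on the log2 scale, an interaction of -0.37. For mt-Nd5 the interaction was -0.47 (SE 0.20), and for mt-Nd2, mt-Nd4 and mt-Nd4l it lay between -0.35 and -0.34 with SEs of 0.19 to 0.23. mt-Nd3 and mt-Nd6 showed values of 0.0045 (SE 0.21) and 0.0040 (SE 0.37), with the same estimate of the PE difference in both diets when the division was left out. With the division in the fit these became -0.21 (SE 0.17) and 0.63 (SE 0.24). edgeR called 0 of the 7 and 0.00735% of all genes, and DESeq2 called 0 of the 7 and 0.601% of its genes. An unadjusted p below 0.05 was found for 2 of the 7 and for 1193 of the 13597 genes tested, and nothing is read from the 2.

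The MASH diet alone went with small differences. Under vehicle, the log2 fold change of MD + Veh against CD + Veh was 0.38 (SE 0.14) for mt-Nd5, at 7981, 7483, 8145, 8457 and 9095 CPM in MD + Veh, above every CD + Veh library, where 16.2% of all genes tested did not overlap. It was 0.090 (SE 0.10) for mt-Nd1, 0.28 (SE 0.14) for mt-Nd2, 0.23 (SE 0.14) for mt-Nd4 and 0.38 (SE 0.17) for mt-Nd4l, with overlapping ranges. Under PE, MD + PE against CD + PE gave -0.28 (SE 0.094) for mt-Nd1, the one of the 7 without overlap there, beside 6.18% of all genes tested, and between -0.12 and 0.039 for mt-Nd2, mt-Nd4, mt-Nd4l and mt-Nd5. edgeR called 0 of the 7 in either comparison, beside 10.4% of all genes under vehicle and 4.61% under PE. An unadjusted p below 0.05 was found for 3 of the 7 in each. Of all 13597 genes tested, 3890 had one under vehicle and 2954 under PE, and nothing is read from the 3. DESeq2 called mt-Nd5 under vehicle, beside 10.9% of its genes, and 0 under PE, beside 5.46%. The muscle markers, all 6 called higher in MD + Veh than in CD + Veh, moved with the vehicle comparison. So did the hepatocyte markers, whose sum was 72660.3 ± 7421 CPM (SD, n = 4) in CD + Veh and 55329 ± 6222 (SD, n = 5) in MD + Veh, and 74818 ± 10065 in CD + PE and 53288 ± 5532 in MD + PE (SD, n = 5 each). The hepatocyte markers did not all move alike. Under vehicle, Alb and Apoa1 were called lower and Cyp2e1 higher on the MASH diet, and the 5 ran from -0.48 to 0.52 on the log2 scale. Under PE, Alb, Ttr and Apoa1 were called lower, and the 5 ran from -0.62 to 0.37. Red blood cell markers summed to 66.9 to 121 CPM in CD + Veh, 68.1 to 473 in MD + Veh, 29.6 to 288 in CD + PE and 67.0 to 206 in MD + PE, with a median log2 difference of -2.13 across the division within MD + Veh, where neither of the pair was called. The part of these markers in the values of the 7 was not tested.

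The other transcripts of the mitochondrial genome do not belong to the 7, but they too were listed with earlier results known. The 6 other mRNAs encode subunits of cytochrome c oxidase (mt-Co1, mt-Co2, mt-Co3), ATP synthase (mt-Atp6, mt-Atp8) and complex III (mt-Cytb). All but mt-Cytb lie wholly or partly in the mitochondrial stretch that is repeated on chromosome 1. The listed nuclear copies of mitochondrial genes summed to between 6566 and 9953 CPM in a library. The part of reads shared with them in the values below was not tested. On the control diet their PE log2 fold changes were 0.42 for mt-Co1 (SE 0.13, adjusted p = 0.0688), 0.48 for mt-Co2 (SE 0.15, adjusted p = 0.0765), 0.48 for mt-Cytb (SE 0.15, adjusted p = 0.0779), 0.38 for mt-Co3 (SE 0.26, adjusted p = 0.480), 0.62 for mt-Atp6 (SE 0.27, adjusted p = 0.231) and -0.41 for mt-Atp8 (SE 0.18, adjusted p = 0.229), all by edgeR's quasi-likelihood test with Benjamini-Hochberg adjustment. Fitted with the division these became 0.12 for mt-Co1, 0.47 for mt-Co2, 0.22 for mt-Cytb, -0.068 for mt-Co3, 0.45 for mt-Atp6 and 0.16 for mt-Atp8, so that mt-Co3 and mt-Atp8 changed sign. The test called 0 of the 6 in any comparison. For PE on the control diet, 5 of the 6 had an unadjusted p below 0.05, as did 2377 of all genes tested. DESeq2 called 3 of the 6 there (mt-Co1, mt-Co2 and mt-Cytb). The median was 0.45, close to the 0.41 of the 7 complex I mRNAs, while that of all genes tested was 0.0064. On the MASH diet the median of the 6 was 0.049 and that of the 7 was 0.058.

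The ribosomal RNA mt-Rnr1, of the small mitochondrial ribosome subunit, rose under PE on the control diet, with 0.77 on the log2 scale (SE 0.19, adjusted p = 0.0260 by edgeR's quasi-likelihood test with Benjamini-Hochberg adjustment). mt-Rnr2, of the large subunit, had 0.68 (SE 0.21, adjusted p = 0.0732), and DESeq2 called both. mt-Rnr1 was no longer called with the division as a term, at 0.043 (SE 0.23, adjusted p = 0.964), and mt-Rnr2 stood at -0.17 (SE 0.25, adjusted p = 0.819). None of the 22 mitochondrial tRNAs passed the filter on low counts. Over the 19 libraries, mt-Nd6 correlated with mt-Rnr1 at 0.72 and with mt-Rnr2 at 0.79, above its correlations of 0.32 to 0.50 with mt-Nd1, mt-Nd2, mt-Nd4, mt-Nd4l and mt-Nd5. mt-Nd3 correlated with mt-Atp8 at 0.72, and these are, with mt-Nd4l, the shortest genes of the 13 that encode proteins. mt-Nd4l correlated with mt-Nd3 at -0.31 and with mt-Atp8 at 0.22. All of them lie in the mitochondrial stretch that is repeated on chromosome 1. mt-Atp6, mt-Co2 and mt-Co3 lie there too and correlated with mt-Nd3 at -0.27, -0.23 and 0.050. The part of gene length or of reads shared with nuclear copies was not tested. Across the division within MD + Veh, mt-Rnr1 differed by 0.72 (SE 0.19, adjusted p = 0.139), mt-Rnr2 by 0.86 (SE 0.20, adjusted p = 0.0952) and mt-Atp8 by -0.57 (SE 0.21, adjusted p = 0.292). Of the 8 transcripts outside complex I, 3 had an unadjusted p below 0.05 there and edgeR called 0.

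**Figure D5:**
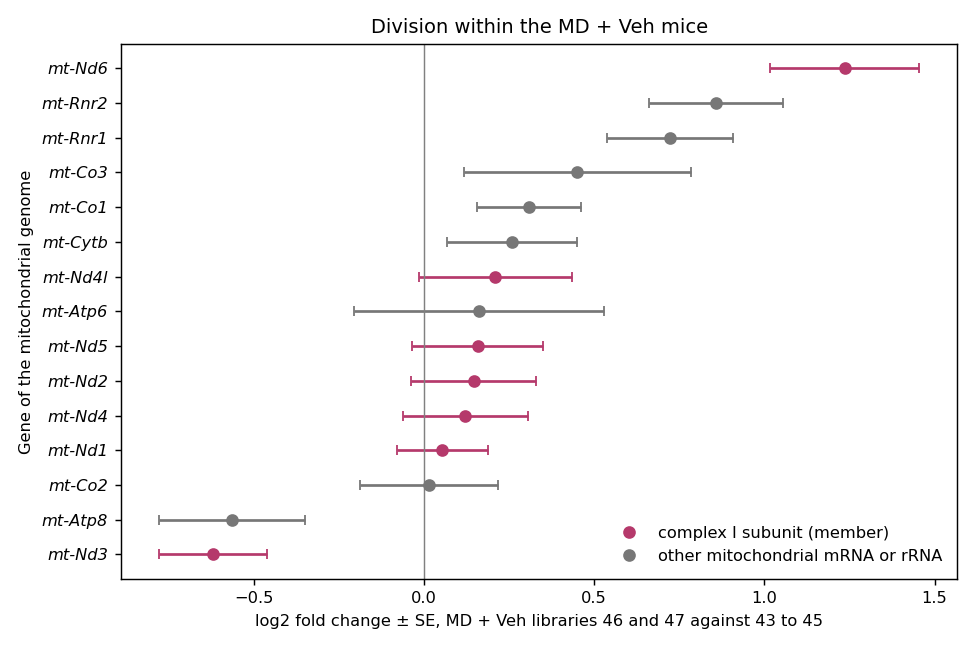
Log2 fold change, with its SE as bars, of MD + Veh replicates 4 and 5 (library numbers 46 and 47) against replicates 1 to 3 (43 to 45) for 15 mitochondrial transcripts, with the 7 complex I mRNAs coloured. mt-Nd6 is at 1.24 and mt-Nd3 at -0.62, the other 5 complex I mRNAs are between 0.054 and 0.21, and the rRNAs are at 0.72 and 0.86.

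The nuclear genes of complex I were measured beside their mitochondrial partners. Of the 7 nuclear core subunits, which carry the flavin and the iron-sulfur clusters, edgeR called 0 in every comparison and DESeq2 called 0. For PE on the control diet 3 had an unadjusted p below 0.05 and the median log2 fold change was -0.13, and on the MASH diet 5 did and the median was -0.16. Of all 13597 genes tested, 2377 had an unadjusted p below 0.05 on the control diet and 2132 on the MASH diet. Ndufs1, the largest iron-sulfur subunit, stood at -0.28 (SE 0.061, adjusted p = 0.0156 by edgeR's quasi-likelihood test with Benjamini-Hochberg adjustment) on the control diet, under the fold threshold. Of 30 accessory subunits, 3 were called on the control diet: Ndufb4 rose by 0.51 (SE 0.13, adjusted p = 0.0307 by edgeR's quasi-likelihood test with Benjamini-Hochberg adjustment), Ndufa13 fell by 0.53 (SE 0.091, adjusted p = 0.00317) and Ndufa5 fell by 0.43 (SE 0.074, adjusted p = 0.00329). On the MASH diet Ndufa13 fell by 0.45 (SE 0.086, adjusted p = 0.0118) and no other accessory subunit was called. None of these was called with the division as a term, with Ndufb4 at 0.065 (SE 0.17, adjusted p = 0.919), Ndufa13 at -0.23 (SE 0.13, adjusted p = 0.538) and Ndufa5 at -0.37 (SE 0.13, adjusted p = 0.228) on the control diet and Ndufa13 at -0.27 (SE 0.096, adjusted p = 0.411) on the MASH diet. The diet comparisons and the interaction called 0 of the 30, and DESeq2 called 0 there. In these, 9, 11 and 3 of the 30 had an unadjusted p below 0.05, beside 3890, 2954 and 1193 of all genes tested. Of 16 assembly factors, edgeR and DESeq2 called 0 in every comparison, with at most 3 at an unadjusted p below 0.05 in any of the group comparisons.

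Genes that make and process mitochondrial RNA were listed beside the 7. Of 24 such genes, edgeR's quasi-likelihood test with Benjamini-Hochberg adjustment called 0 for PE on either diet, where 2 and 3 had an unadjusted p below 0.05 and DESeq2 called 0. Fastk, which is needed for the mature mt-Nd6 mRNA, stood at -0.25 on the log2 scale (SE 0.11, adjusted p = 0.23 by edgeR) on the control diet and -0.11 (SE 0.10, adjusted p = 0.651) on the MASH diet. Grsf1, a protein of the mitochondrial RNA granules that binds the mt-Nd6 RNA, had -0.019 (SE 0.080) and -0.031 (SE 0.075). Lrpprc, which stabilises mitochondrial mRNAs, had -0.25 (SE 0.079, adjusted p = 0.0813) and -0.092 (SE 0.075, adjusted p = 0.611), and the RNA polymerase Polrmt had -0.051 (SE 0.092, adjusted p = 0.844) and -0.33 (SE 0.088, adjusted p = 0.0649). In MD + Veh against CD + Veh, Hsd17b10, a subunit of mitochondrial RNase P, rose by 0.71 (SE 0.14, adjusted p = 0.00223), the oligoribonuclease Rexo2 rose by 0.46 (SE 0.096, adjusted p = 0.00328) and Fastkd1 fell by 0.53 (SE 0.097, adjusted p = 0.00106). These 3 of 24 stand beside 10.4% of all genes called in that comparison. DESeq2 called the same 3, and Hsd17b10 also in MD + PE against CD + PE. Of 10 genes used as marks of mitochondrial mass, edgeR called 0 in every comparison, with 3 at an unadjusted p below 0.05 for PE on the control diet and 5 on the MASH diet, and DESeq2 called Cs, citrate synthase, in both. The median PE log2 fold change of these 10 was -0.064 on the control diet and -0.11 on the MASH diet.

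RNAs that carry no poly(A) tail, mostly replication-dependent histone mRNAs, were listed because the libraries were selected for poly(A). Of 37 listed, 9 passed the filter on low counts. Between CD + PE and CD + Veh, H1f2 rose by 0.60 (SE 0.12, adjusted p = 0.00994 by edgeR's quasi-likelihood test with Benjamini-Hochberg adjustment) and H2bc4 by 0.475 (SE 0.12, adjusted p = 0.0308), both as log2 fold changes. Neither was called with the division as a term, at 0.58 (SE 0.21, adjusted p = 0.257) and 0.20 (SE 0.19, adjusted p = 0.713). On the MASH diet 0 were called, 1 had an unadjusted p below 0.05 and DESeq2 called 0. Under vehicle, edgeR called 4 of the 9 higher on the MASH diet (H1f2, H1f3, H2bc4 and H2bc6), beside 10.4% of all genes. DESeq2 called 6 of the list, adding H1f4 and H4c9. The log2 fold changes of the 9 ran from -0.15 to 2.11, with a median of 0.88. In the edgeR test 6 of the 9 reached an unadjusted p under 0.05. With the division as a term, H1f2 and H2bc4 were still called. The whole list, including genes under the filter, summed to 116 to 210.3 CPM in libraries 39 to 45 and 157 to 258 CPM in libraries 46 to 57. The part of tail selection in the mt-Nd6 values was not tested.

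Genes averaging 5 CPM or more, 9378 outside the mitochondrial genome, were ranked by likeness, and those whose log2 CPM correlated best with mt-Nd6 over the 19 libraries were Bnip2 (Pearson r = 0.94), Man1a (0.90), Tent4b (0.90), Lypla1 (0.90) and Tmed7 (0.89). Bnip2 did not overlap across the division either, at 40.2 to 45.1 CPM in libraries 39 to 45 and 47.6 to 60.2 CPM in libraries 46 to 57. None of the 5 was called for PE on either diet. The genes most like the mean of the 6 mRNAs other than mt-Nd6 were 0610030E20Rik (0.88), Alad, an enzyme of haem synthesis (0.86), Gm28437 (0.83), Cited2 (0.81) and Car5a, a mitochondrial carbonic anhydrase (0.80). Gm28437, like Gm29216 below, is on the list of nuclear copies of mitochondrial genes, and it held 4864 to 6962 CPM. The part of reads shared with mitochondrial genes in the likeness of these copies was not tested. For mt-Nd3, looked up after its values were seen, they were ENSMUSG00000121793 (0.96), Gm29216 (0.96), Rpl28-ps1 (0.94), Atp5mg, a small subunit of ATP synthase (0.93), and Gm7536 (0.93). ENSMUSG00000121793, Gm29216, Rpl28-ps1 and Gm7536 were called for PE on the control diet, beside 2.92% of all genes tested. None of them was called there with the division as a term. They were picked by likeness over the same libraries, so nothing is read from these calls. Atp5mg held 83.6 to 98.4 CPM in libraries 39 to 45 and 65.2 to 82.0 CPM in libraries 46 to 57. These correlations share libraries, groups and scaling, and are given as a description over n = 19 libraries.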

How the data were processed

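Liver RNA of 19 mice was sequenced as stranded, poly(A)-selected libraries. The authors trimmed reads with fastp 0.23.4, quantified them with Salmon 1.10.3 against a GRCm39 GENCODE transcriptome (release not given in the sources used here) and used tximport to reach gene level. What they deposited are estimated counts per gene, already whole numbers and not normalized. Salmon divides reads that fit several transcripts among them, so near-identical nuclear copies can share reads with a mitochondrial gene.

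All 19 libraries entered 1 edgeR 4.0.16 quasi-likelihood fit in R 4.3.3 (TMM scaling, filterByExpr, 1 coefficient per group), with Benjamini-Hochberg adjustment over all 13597 genes tested. Calls needed an adjusted p below 0.05 together with a log2 change of 0.38 or more in either direction. Of the 13597 genes, 2377 had an unadjusted p below 0.05 for PE on the control diet and 2132 on the MASH diet. For the diet under vehicle and under PE, 3890 and 2954 did. The interaction had 1193, and the division within MD + Veh had 1642. Levels are TMM-scaled CPM, computed here, and log2 CPM used a prior count of 2. The tests weigh each difference against the spread between mice within groups, estimated over the 4 groups together. The paper reports that mice were housed together in groups, so differences between cages or library numbers may lie outside that spread.

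The 7 genes and the gene lists were chosen with earlier results of these data known. Named were the 7, the other mitochondrial mRNAs and rRNAs, the called genes of each list (at most 6, otherwise the 3 with the smallest p), Fastk, Grsf1, Lrpprc and Polrmt, and the 5 genes most like mt-Nd6 or the mean of the 6 heavy-strand mRNAs. Ndufs1 was named outside that rule, after its value was seen. Positions are from GENCODE vM39, and nuclear copies were found with blastn 2.17.0 (at least 90% identity over 100 bases).

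Alternatives were RLE size factors, no filter or a stricter one (10 counts), the compared groups alone, a replicate block, the library-number division as a term, thinning to the smallest library, DESeq2 1.42.0 and leaving out each library. TMM scaling and library size computed without the mitochondrial genes was a further alternative. Adding the nuclear copies to their genes was chosen after seeing the data. The fits were tested on simulated data. Replicate numbers shared between groups did not pair the mice.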

Additional observations from a re-analysis of the deposited data

Results flagged for a closer look

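In 28 combinations of gene and group, the highest or lowest library was compared with the rest by its gap to the nearest other library as a share of the group's range, and 3 stood further apart than Dixon's 95% critical value, where chance gives about 1 in 20. mt-Nd3 in CD + PE replicate 2 stood at 158 CPM, with the nearest library at 206. mt-Nd4 in MD + PE replicate 4 stood at 8786 CPM, with the nearest at 11926. mt-Nd5 in the same library stood at 6005 CPM, with the nearest at 9139.9. The flags of mt-Nd4 and mt-Nd5 come from 1 library, the lowest of its group in all 6 heavy-strand mRNAs, and are not independent.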

How the results depend on the processing

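Of 1008 values of the 35 log2 fold changes of the 7 mRNAs under the alternatives, 1002 moved by less than 1 SD between replicates, 961 kept their sign and 0 called values reversed. Of up to 29 alternatives per comparison, 19 left out 1 library each, often from a group outside the comparison. Such values had little room to move, so the 1002 is no measure of stability. The 6 that moved further all came from the library-number division: on the control diet mt-Nd3 at -0.053 and mt-Nd6 at -0.30, on the MASH diet mt-Nd3 at -0.27 and mt-Nd6 at 0.33, mt-Nd6 at -0.098 for the diet under vehicle, and at 0.63 for the interaction. The number of the 7 called for PE on the control diet was 3, and became 0 with the division, 1 without a filter, 5 with DESeq2 and 0 to 4 leaving out single libraries (0 without CD + Veh replicate 4, and 1 without any of CD + Veh replicates 1 and 2 and of CD + PE replicates 1, 3 and 4). On the MASH diet it was 1, and became 0 with the division or with the compared groups alone, 2 with DESeq2 and 0 to 2 leaving out single libraries (0 with replicate 1 or 3 of MD + Veh, or 2, 3 or 4 of MD + PE, left out, and 2 with replicate 4 or 5 of MD + Veh, or 1 of MD + PE, left out). For the diet under vehicle, 0 became 1 with the compared groups alone or DESeq2, and 0 to 1 leaving out single libraries (1 without MD + Veh replicate 1 or MD + PE replicate 4). For the diet under PE, 0 became 2 with the division (mt-Nd3 and mt-Nd6), and 0 to 1 leaving out single libraries (1 without CD + PE replicate 2). The causes of these changes were not tested.

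Of all genes, the division left 37 calls for PE on the control diet in place of 397 and 33 on the MASH diet in place of 147, where the compared groups alone gave 73 and DESeq2 303. The interaction, with 1 call, had 54 with the division and 82 with DESeq2.

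With a replicate block, 1 of the 7 was called for PE on the control diet and 2 on the MASH diet, and the interaction had 41 calls over all genes. The pairing was not borne out: over 27 pairs of libraries with the same number the median correlation of deviations from the group means was 0.029, and 6 pairs exceeded 0.1.

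With 9.96 to 16.1 counts behind each CPM, counting error is small beside the spread between mice for all 7. Selection for poly(A) tails, the share of reads on near-identical copies and the meaning of the library numbers limit these values, and their parts were not tested.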
